A study of Rattus norvegicus with 8 samples.

Results

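The metabotropic glutamate receptors were followed as 7 genes, Grm2 to Grm8, of the 18365 named genes on the array, and as 10 of its 41012 probes. Probes were taken by the gene name in the array files, whatever their signal, which gave a pair of probes each for Grm6, Grm7 and Grm8 and 1 probe each for Grm2, Grm3, Grm4 and Grm5. These receptors are G protein-coupled receptors through which glutamate acts more slowly than through its ion channel receptors. By background knowledge, Grm5 belongs to group I, which couples to Gq, phospholipase C and the release of stored calcium, mostly on the postsynaptic side, whereas group II (Grm2, Grm3) and group III (Grm4, Grm6, Grm7, Grm8) couple to Gi/o, lower cyclic AMP and act largely at nerve terminals, where they restrain transmitter release. In the hippocampus, Grm2 is best known from the mossy fibre input to CA3, and Grm7 from the active zones of presynaptic terminals.

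Male Sprague-Dawley rats received moderate fluid percussion injury, a model of traumatic brain injury, or sham injury, or were left untreated (naive), and hippocampal CA3 pyramidal neurons were laser captured from brains taken 24 h later. In injured rats, neurons positive for Fluoro-Jade, a dye that marks degenerating neurons, formed the dying group, and Fluoro-Jade-negative neurons next to them formed the surviving group. Each dying or surviving pool held about 600 neurons of at least 3 rats, and naive and sham pools carried no Fluoro-Jade selection as far as the sources used here state. Each of the 4 groups had 2 single-colour whole-genome arrays, 1 amplified pool per array. Surviving neurons were taken beside dying neurons of the same brains, and the paper describes the pools of a group as biological replicates, but which rats went into which pool, and so which pools shared rats, and the age of the rats are not given in the sources used here, so p-values measure the spread between these arrays only. The 4 arrays of injured rats lay on 1 slide and the 4 naive and sham arrays on another, processed under a different extraction protocol name, so in any comparison with sham the injury cannot be told apart from the slide, while surviving against dying and sham against naive lie within a slide.

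The median signal was 28.8 and 22.7 on the naive arrays, 16.5 and 16.4 on the sham arrays, 52.4 and 48.3 on the surviving arrays, and 19.4 and 53.0 on the dying arrays. The number of probes well above background, as marked by the scanner software, was 23151 and 22397 on the naive arrays, 20923 and 20198 on the sham arrays, 29391 and 27111 on the surviving arrays, and 24167 and 28094 on the dying arrays. Dying replicate 1 was thus dimmer than the other 3 arrays of its slide. Levels below are log2 of the signal over the array median, so 0 is the array median and a difference of 1 is a doubling of that ratio. Levels of different probes are not set against each other, and the small number of arrays limits the precision of every value.

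The label of the cells was checked against marker genes. Of 8 measured pyramidal neuron markers (of 9 listed), all were above background on every array except Grik4 on dying replicate 1. Their summed scaled signal, led by Nrgn on every array, was 5470 and 8234 (naive), 10847 and 9444 (sham), 6096 and 5914 (surviving), and 3030 and 3289 (dying). Nrgn made up most of that sum, and dying replicate 1 stood apart from dying replicate 2 in the other markers. It was the lower of the pair on 7 of the 8 and the lowest of all 8 arrays on 6, with log2 levels of 0.992 against 5.999 for Nefl, -1.08 against 4.96 for Grik4, 1.74 against 3.86 for Camk2a and 3.92 against 6.13 for Neurod2. Transcripts of other cells were present too, and their values are given with the comparisons below.

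**Figure D1:**
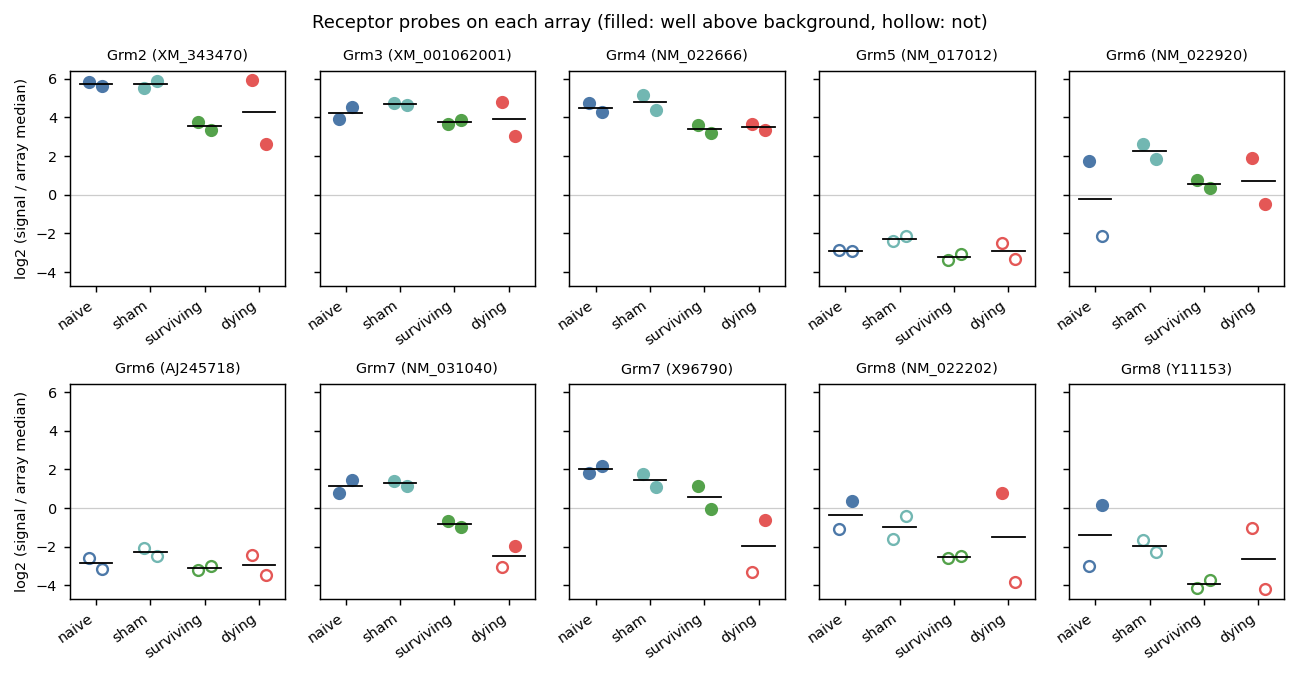
Log2 level (signal over array median) of each of the 10 receptor probes on the 8 arrays, by group; filled circles are well above background, hollow circles are not, and the bar is the group mean. Grm2, Grm3 and Grm4 were filled on all 8 arrays and Grm5 on none, and both Grm7 probes were lowest in the dying group.

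Of the 10 receptor probes, 3 (Grm2, Grm3 and Grm4) were well above background on all 8 arrays, 5 on some arrays and 2 on no array. By array, 6 and 7 (naive), 6 and 6 (sham), 6 and 6 (surviving), and 5 and 6 (dying) of the 10 were above background.

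In group I, the Grm5 probe, printed on the array in 10 spots, was not well above background on any array. Its log2 levels were -2.88 and -2.91 (naive), -2.41 and -2.13 (sham), -3.38 and -3.07 (surviving), and -2.48 and -3.34 (dying), which are values at background and have no order. Grm5, the Gq-coupled receptor of the postsynaptic membrane, was therefore not detectable with this probe, and it was not among the probes tested. With no filter on background its differences did not pass the threshold in any comparison (lowest adjusted p 0.2).

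In group II, Grm2, the Gi-coupled autoreceptor of glutamate terminals, had log2 levels of 5.84 and 5.63 (naive), 5.55 and 5.91 (sham), 3.78 and 3.34 (surviving), and 5.91 and 2.65 (dying). The dying arrays lay far apart, 1 of them as high as the sham arrays and the other below both surviving arrays, whereas the surviving arrays lay below every naive and sham array. Grm3, the other group II receptor, also known from astrocytes, had log2 levels of 3.91 and 4.54 (naive), 4.72 and 4.64 (sham), 3.68 and 3.85 (surviving), and 4.78 and 3.06 (dying). The same dying array, replicate 1, was again the higher of the pair. By group mean, Grm2 ran from naive (5.74 ± 0.15, SD, n = 2) through sham (5.73 ± 0.26) and dying (4.28 ± 2.31) to surviving (3.56 ± 0.31), and the naive and sham means differed by less than their spread, as did the dying mean from each of the others. Grm3 ran from sham (4.68 ± 0.06) through naive (4.22 ± 0.45) and dying (3.92 ± 1.21) to surviving (3.76 ± 0.12), with a spread in the dying pair wider than any gap between neighbours.

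In group III, Grm4, a presynaptic Gi-coupled receptor, had log2 levels of 4.73 and 4.28 (naive), 5.17 and 4.40 (sham), 3.62 and 3.20 (surviving), and 3.66 and 3.37 (dying). After scaling, all 4 arrays of injured rats lay below all 4 naive and sham arrays, the surviving and dying arrays overlapped, and the group means were 4.78 ± 0.54 in sham, 4.51 ± 0.32 in naive, 3.52 ± 0.21 in dying and 3.41 ± 0.30 in surviving pools. Before scaling, the Grm4 arrays of injured rats overlapped with the others. The signal was 765 and 442 (naive), 594 and 346 (sham), 645 and 442 (surviving), and 246 and 548 (dying). Grm6, known as the receptor of retinal ON bipolar cells, had log2 levels on its main probe (NM_022920) of 1.74 and -2.13 (naive), 2.64 and 1.84 (sham), 0.78 and 0.33 (surviving), and 1.91 and -0.45 (dying). Of these only naive replicate 2 was not above background, and the scatter within the naive pair (SD 2.73) exceeded every gap between group means. The other Grm6 probe (AJ245718), for a putative truncated form, was not above background on any array, with log2 levels from -3.45 to -2.09.

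Grm7, a group III receptor of low glutamate affinity that sits at the release sites of terminals, was measured by a probe for its reference transcript (NM_031040) and a probe for its splice form b (X96790). The reference probe had log2 levels of 0.79 and 1.44 (naive), 1.38 and 1.16 (sham), -0.68 and -0.98 (surviving), and -3.05 and -1.95 (dying), and was above background on every array except dying replicate 1. Both surviving arrays lay below all naive and sham arrays, and both dying arrays below both surviving arrays. Before scaling, its signal was 49.9 and 61.7 (naive), 43 and 36.7 (sham), 32.7 and 24.5 (surviving), and 2.34 and 13.8 (dying), lowest on both dying arrays. The splice form b probe had log2 levels of 1.83 and 2.19 (naive), 1.78 and 1.09 (sham), 1.16 and -0.06 (surviving), and -3.28 and -0.60 (dying), and was not above background on dying replicate 1. Both dying arrays lay below all other arrays here too after scaling, but not before it, where the signal was 102 and 104 (naive), 56.6 and 34.8 (sham), 117 and 46.2 (surviving), and 1.99 and 34.9 (dying), and the surviving and sham arrays overlapped. The order of the means for the reference probe was sham (1.27 ± 0.15), naive (1.12 ± 0.46), surviving (-0.83 ± 0.21) and dying (-2.50 ± 0.78), of which sham and naive did not differ beyond their spread.

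The RefSeq promoter of Grm7 is shown because its probes moved together between sham and dying pools. It lies at chr4:145286476-145286775 on the plus strand of GRCr8, and the capitals mark matches to the GC box letters GGGCGG on either strand.
Grm7: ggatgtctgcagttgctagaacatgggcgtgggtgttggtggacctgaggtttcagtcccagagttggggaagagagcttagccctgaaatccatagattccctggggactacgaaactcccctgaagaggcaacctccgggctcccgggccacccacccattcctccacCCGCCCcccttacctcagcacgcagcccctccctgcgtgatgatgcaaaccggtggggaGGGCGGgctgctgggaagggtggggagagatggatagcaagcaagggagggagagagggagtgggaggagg
The 2 matches begin 80 and 21 bases before the annotated start, and 33.1% of the 33469 rat promoters of this length in the RefSeq table hold at least 1. The window has 62% GC and 9 CpG dinucleotides, against medians of 51.7% and 7 over all promoters. Promoters were matched for 4 of the 7 receptor genes (Grm5, Grm6, Grm7 and Grm8). The letters GGGCGG were found in Grm7 alone of these 4, and none of them held TATAAA (in 14.2% of all promoters), TGACG, the core of the cyclic AMP response element (21.2%), or CCAAT (37.5%), on either strand. A match describes letters in this window only.

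Grm8, another presynaptic group III receptor, had log2 levels on its main probe (NM_022202) of -1.07 and 0.37 (naive), -1.60 and -0.40 (sham), -2.58 and -2.49 (surviving), and 0.79 and -3.80 (dying). It was above background on naive replicate 2 and dying replicate 1 only, so the pools of 1 group fell on both sides of the detection limit. The splice form b probe of Grm8 (Y11153) was above background on naive replicate 2 only, at a log2 level of 0.14, with log2 levels from -4.20 to -1.02 on the other arrays.

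Surviving against dying neurons of injured rats was the comparison the study was made for. Grm7 had the widest gap of the receptors: the surviving mean exceeded the dying mean by 1.67 ± 0.55 (SE, n = 2 and 2) on the log2 scale on the reference probe (adjusted p = 0.17) and by 2.49 ± 0.87 on the splice form b probe (adjusted p = 0.181), in both cases with surviving arrays higher than dying arrays without overlap and neither past the threshold of 0.05. With dying replicate 1, where neither was above background, at the lowest level that counted as above it, the gaps were 1.77-fold and 2.89-fold. Grm2 (-0.72 ± 0.93, adjusted p = 0.703), Grm3 (-0.16 ± 0.63, adjusted p = 0.92), Grm4 (-0.11 ± 0.51, adjusted p = 0.932) and Grm6 (-0.18 ± 1.23, adjusted p = 0.955) had overlapping arrays. The 95% intervals still allow sizeable differences, from -2.86 to 1.42 for Grm2 and from -1.28 to 1.06 for Grm4. Of the 6 receptor probes tested, 0 were called by limma and 2 had an unadjusted p under 0.05, against 0% and 20.2% (5529) of all 27404 probes tested, and 2 of 6 did not overlap with surviving higher, against 30.7% of all probes. In both counts the 2 are the Grm7 probes. They entered the test through the surviving arrays, where they are higher, and are not tested where all 4 arrays have to be above background. These counts are therefore a description and no support for a difference. In an exact permutation test of 2 arrays against 2, the smallest two-sided p is 0.333, so that test cannot reach 0.05. Here and in all comparisons, fewer cells of a type in a pool and less RNA per cell cannot be told apart.

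The dying pair decided most of these values. Without dying replicate 2, which leaves dying replicate 1 as the lone dying array with the spread of the other groups, 5027 of 28210 probes (17.8%) were called in place of 0, and 4 of 7 receptor probes: Grm2 (-2.35, adjusted p = 0.0272), both Grm7 probes, higher in surviving, and Grm8 (NM_022202), lower in surviving. The Grm7 probes were not above background on that dying array and Grm8 not on either surviving array, so no size is given for them. Without dying replicate 1, 0 probes were called by limma (3810 at an unadjusted p under 0.05), Grm2 changed sign to 0.91, Grm3 to 0.70 and Grm6 to 1.01, and the Grm7 differences were 1.12 (adjusted p = 0.413) and, for splice form b, 1.15 (adjusted p = 0.503). Only the direction of both Grm7 probes held in every alternative, down to 0.09 and 0.40 with normexp background correction, where the median of all probes was 0.36. A fold filter after the study's methods, which state it for ratios to sham, was applied here to surviving against dying: it keeps probes above background on all 4 arrays whose replicates lie within 1.5 times of each other and whose means differ over 2-fold. It passed 0 of the 4 receptor probes it could be applied to, against 4.97% (1056) of 21262 probes, and 0 with replicates within 2 times of each other, against 11.5% (2451). With no limit on replicates it passed 1 of the 4, against 30.4% (6463) of all: Grm2, 2.79-fold higher in dying by the mean of signals, where the dying replicates differed 9.61-fold. Both Grm7 probes stood outside this filter because dying replicate 1 was not above background.

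**Figure D2:**
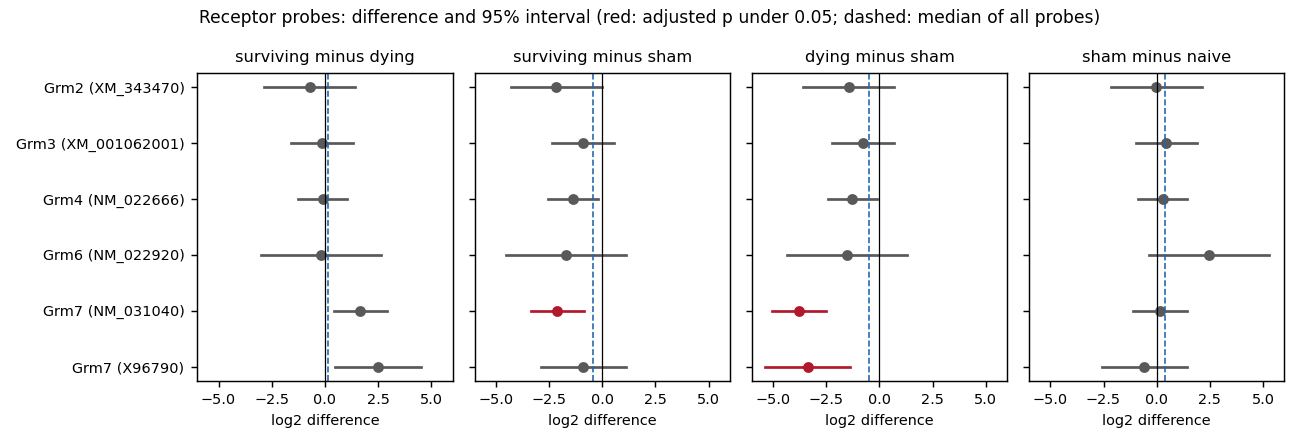
Log2 difference of each tested receptor probe with its 95% confidence interval in the 4 comparisons; red marks an adjusted p under 0.05 and the dashed line is the median of all probes tested. Red marks Grm7 in surviving minus sham (-2.10) and both Grm7 probes in dying minus sham (-3.77 and -3.37).

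Surviving against sham neurons asks what injury was accompanied by in neurons without Fluoro-Jade label. Grm7 (NM_031040) fell by 2.10 ± 0.55 (SE, n = 2 and 2) on the log2 scale (4.29-fold, adjusted p = 0.0398), with both surviving arrays below both sham arrays. Grm2 (-2.17 ± 0.93, adjusted p = 0.139), Grm4 (-1.38 ± 0.51, adjusted p = 0.0968), Grm3 (-0.92, adjusted p = 0.326) and Grm6 (-1.69, adjusted p = 0.351) also had both surviving arrays below both sham arrays and did not pass the threshold, and the splice form b probe of Grm7 (-0.88, adjusted p = 0.492) overlapped. So 1 of 6 receptor probes was called, lower in surviving, against 15.5% of 26910 probes called in either direction and 9.93% called lower, and 5 of 6 did not overlap with surviving lower, against 49.1% of all probes. Before scaling, both surviving arrays also lay below both sham arrays for Grm2 and for Grm7 (NM_031040). Grm4 and Grm6 overlapped before scaling, and Grm3 was higher on both surviving arrays (672 and 695) than on both sham arrays (437 and 409). The Grm7 call, which was lost with a replicate block (-2.10, adjusted p = 0.0631), depended on the processing. It was kept in 9 of 20 alternatives and lost, among others, with scaling to the 75th percentile (-1.32, adjusted p = 0.106), with normexp background correction (-0.64, adjusted p = 0.529), with the mean over both Grm7 probes (-1.49, adjusted p = 0.161) and without any 1 of the 4 arrays (adjusted p from 0.141 to 0.235). The spread had been moderated in 5 ways before the version over all probes was settled on, and the call held in 3 of them (adjusted p from 0.0339 to 0.0398) and not in the 2 that let the spread follow the level (0.0543 and 0.0681).

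Dying against sham neurons gave wider gaps than surviving against sham for both Grm7 probes and narrower gaps for the other 4 tested. Grm7 (NM_031040) fell by 3.77 ± 0.55 (SE, n = 2 and 2) on the log2 scale (adjusted p = 0.00346) and its splice form b differed by -3.37 ± 0.87 (adjusted p = 0.0189), with both dying arrays below both sham arrays on each probe. Both probes entered the test through the sham arrays and are not tested where all 4 arrays have to be above background. Dying replicate 1, where neither probe was above background, enters at its measured value. With that array at the lowest level that counted as above background, sham was 7.61-fold over dying on the reference probe and 5.34-fold on the splice form b probe. Without the array, which leaves 1 dying array, the reference probe differed by -3.22 and the splice form b probe by -2.04. The reference probe was called in 18 of 19 alternatives and lost with normexp background correction (-0.73, adjusted p = 0.441), and the splice form b probe was called in 13 of 19 and lost also without either sham array (adjusted p = 0.112 and 0.0608). Grm4 (-1.27 ± 0.51, adjusted p = 0.0763) had both dying arrays below both sham arrays after scaling but not before it, and did not pass the threshold, although it passed in 3 of 20 alternatives (lowest adjusted p 0.0469). Grm2 (-1.45, adjusted p = 0.232, but -3.08, adjusted p = 0.0129, without dying replicate 1), Grm3 (-0.76, adjusted p = 0.345) and Grm6 (-1.51, adjusted p = 0.335) overlapped. In all, 2 of 6 receptor probes were called, both lower and both of 1 gene, against 40.1% of 25629 probes called in either direction and 26.9% called lower, and 3 of 6 did not overlap with dying lower, against 45.9%. Both comparisons use the same sham arrays, so they are not independent of each other.

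The scaling set the level of all differences from sham. The median difference over all probes tested was -0.43 in surviving minus sham and -0.47 in dying minus sham, and it moved to 0.35 and 0.25 with scaling to the 75th percentile. The lower share of the called probes moved with it, from 64.2% (2672 of 4163) to 25.7% (1335 of 5204) in surviving minus sham and from 67% (6898 of 10288) to 40.4% (4495 of 11113) in dying minus sham. Relative to that median, Grm7 lay at -1.67 in surviving minus sham and -3.30 in dying minus sham, Grm2 at -1.74 and -0.97, Grm4 at -0.95 and -0.80, and Grm3 at -0.49 and -0.29. All 6 tested probes, which include both Grm7 probes, lay below the median in both comparisons, which share the sham arrays. By definition a median has as many probes below it as above it, and this count is a description only. Grm3 depended on the scaling, at 0.12 and 0.37 with quantile normalization (-0.06 and 0.16 relative to the median) and at 0.07 in surviving minus sham with normexp correction (-0.02 relative to the median). With normexp correction 0 probes were called by limma in either comparison (2927 and 2859 at an unadjusted p under 0.05).

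Sham against naive neurons asks what surgery alone was accompanied by. Grm7 differed by 0.15 ± 0.55 on the reference probe (adjusted p = 0.944) and by -0.58 ± 0.87 on the splice form b probe (adjusted p = 0.907), Grm2 by -0.01 ± 0.93 (adjusted p = 0.997), Grm3 by 0.46 ± 0.63 (adjusted p = 0.906) and Grm4 by 0.28 ± 0.51 (adjusted p = 0.914), with signs for Grm2, Grm4 and the reference probe of Grm7 that turned with the scaling or with 1 array left out. The sham and naive arrays did not overlap on the splice form b probe (sham lower), Grm3 and Grm6 (sham higher), which is 1 of 6 lower against 4.63% of all probes and 2 of 6 higher against 39.4%, and these 3 kept their signs in every alternative. The median difference over all probes tested was 0.40. Relative to the median, Grm3 lay at 0.05, and at -0.04 with quantile normalization, so its sign is that of all probes. Grm6 had the widest gap (2.44 ± 1.23, adjusted p = 0.902), which rests on naive replicate 2, where it was not above background, and was 0.51 without that array. By limma, 0 of 6 receptor probes were called (0 at an unadjusted p under 0.05), against 0% of 20739 probes (829 at an unadjusted p under 0.05).

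Markers of other cells differed between arrays, with microglial and endothelial sums highest on both dying arrays and the sums of interneurons and oligodendrocyte precursors high on dying replicate 1 alone. The summed scaled signal of 10 microglia and macrophage markers was 123 and 260 (naive), 269 and 247 (sham), 317 and 345 (surviving), and 1974 and 1078 (dying), led by C1qa or C1qb, with Ptprc below background on every array except surviving replicate 2, Itgam on all naive and sham arrays, and Cx3cr1 on these and on dying replicate 1. Of these markers, C1qa, C1qb, C1qc, Tyrobp and Cd68 were highest on both dying arrays, and the others were not. In dying minus sham, Aif1 differed by -0.15 (adjusted p = 0.833) and Csf1r by -0.35 (adjusted p = 0.651). In surviving minus dying they differed by -1.44 (adjusted p = 0.192) and -0.19 (adjusted p = 0.889). The log2 level of Cx3cr1 on dying replicate 1 (-3.34) was the lowest of all 8 arrays. The sum for 8 astrocyte markers, led by Slc1a3, was 785 and 930 (naive), 1366 and 937 (sham), 434 and 487 (surviving), and 1161 and 482 (dying), with S100b below background on sham replicate 2 and on all arrays of injured rats. The sum is mostly Slc1a3, and the other markers went both ways on dying replicate 1. There Gfap (log2 level 1.09) and Slc1a2 (2.48) were the lowest of all 8 arrays, and Gjb6 (7.20) and Aldh1l1 (5.21) the highest. Interneuron markers, 7 led by Npy, summed to 510 and 776 (naive), 669 and 772 (sham), 508 and 454 (surviving), and 1977 and 491 (dying), with Gad2 below background on the naive and sham arrays and Gad1 on surviving replicate 2 and both dying arrays. The sum on dying replicate 1 is mostly Npy. On that array Npy (log2 level 10.35), Sst (8.48) and Vip (7.83) were the highest of all 8 arrays, while Pvalb (5.83) was the lowest. Oligodendrocyte precursor markers (Pdgfra and Cspg4) summed to 56.8 and 42.5, 79.9 and 53.4, 28.2 and 22.3, and 164 and 48 in that order of groups, and 5 endothelial markers, led by Cldn5 or Vwf, to 25 (4 of the 5 measured) and 47.1, 44.5 and 33.7, 41.1 and 33.4, and 150 and 85, with Tek below background on all arrays. The precursor sum on dying replicate 1 is mostly Cspg4 (log2 level 7.10), there the highest of all 8 arrays. Pdgfra (4.74) lay there below naive replicate 1 (5.10) and both sham arrays (5.51 and 5.12). The receptors are known from several of these cells, and the part of other cells in the receptor differences was not tested.

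**Figure D3:**
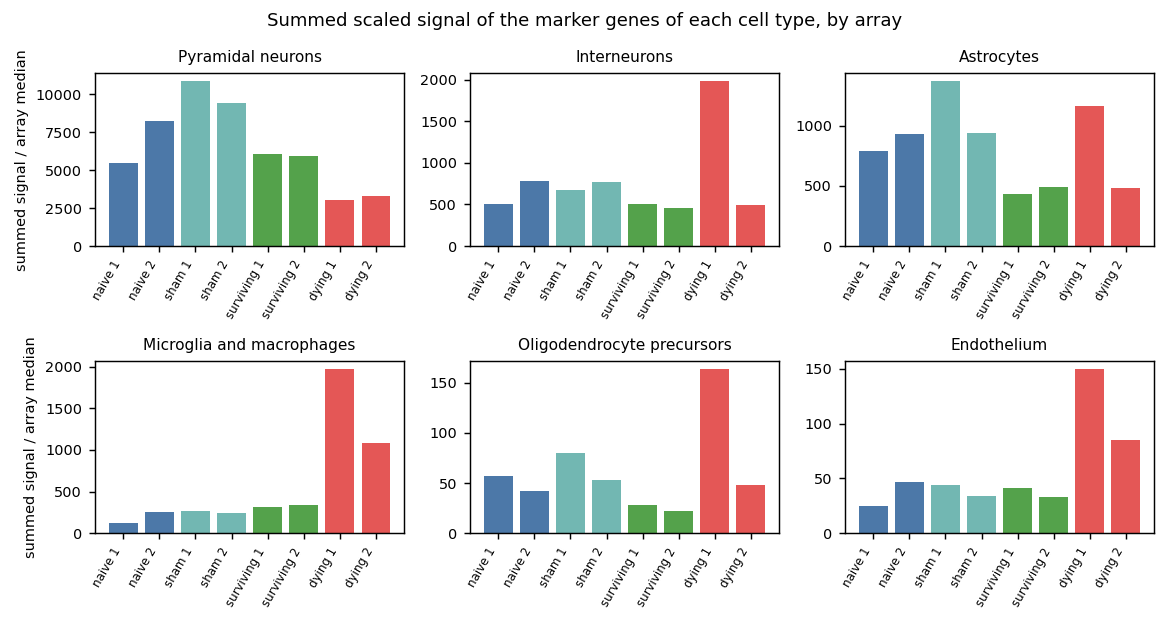
Summed scaled signal (signal over array median) of the marker genes of 6 cell types on each of the 8 arrays. Microglia and macrophage sums were 123 to 345 in naive, sham and surviving pools and 1974 and 1078 in dying pools.

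The receptors act through scaffolds, G proteins and effectors, of which 68 genes were listed by role and 67 found on the array (not Dagla), each read from its brightest probe. In surviving minus dying, limma called 0 of 61 tested, against 0% of all probes, with a median difference of 0.48 against 0.15 over all probes. In surviving minus sham 10 of 60 (16.7%) were called, 9 lower (15%) and 1 higher, against 15.5% of all probes called and 9.93% called lower, with a median of -0.78 against -0.43. In dying minus sham 29 of 60 (48.3%) were called, 27 lower (45%) and 2 higher, against 40.1% called and 26.9% called lower, with a median of -1.55 against -0.47, while sham minus naive had 0 of 54. With scaling to the 75th percentile the calls were 4 lower and 5 higher in surviving minus sham and 18 lower and 5 higher in dying minus sham. In either direction that is 15% against 19.3% of all probes and 38.3% against 43.4%, below the share of all probes in both. The share called lower stayed above that of all probes in both. It was 4 of 60 against 1335 of 26910 in surviving minus sham, and 18 of 60 against 4495 of 25629 in dying minus sham. The partner median in surviving minus sham moved to -0.0027 with 75th percentile scaling, against 0.35 over all probes. It was 0.02 with quantile normalization (0.18 over all probes), 0.10 with the deposited series table (0.45) and 0.19 with normexp correction (0.09). In dying minus sham it was -0.83, -0.67, -0.75 and -0.965 in the same order, against 0.25, 0.21, 0.34 and -0.28 over all probes. Where probes had to be above background on all 4 arrays, the shares called in either direction were 13.5% against 8.82% and 52.2% against 32.9%. Without any 1 of the 4 arrays, 0 partner genes were called in surviving minus sham, so the calls named below for that comparison hold with all 4 arrays only. In dying minus sham 1 was called without sham replicate 1 (1.67%, against 6.88% of all probes), 15 without sham replicate 2 (24.6%, against 13.9%), 26 without dying replicate 1 (41.3%, against 24.6%) and 33 without dying replicate 2 (55%, against 47%). In surviving minus dying, the median difference of the partner genes was 0.48 without dying replicate 2 and 0.42 without dying replicate 1, each of which leaves 1 dying array.

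Among the Homer proteins, which link group I receptors to calcium stores, and other postsynaptic and scaffold partners, 2 of 12 were called in surviving minus sham and 5 of 13 in dying minus sham, all lower, against 15.5% and 40.1% of all probes called in either direction. Homer1 had log2 levels of 5.75 and 5.89 (naive), 6.30 and 6.41 (sham), 5.65 and 5.74 (surviving), and 4.32 and 4.73 (dying), and fell by 1.83 in dying minus sham (adjusted p = 0.0163). Against sham, the scaffold gene Shank1 was lower in surviving (-2.13, adjusted p = 0.026) and in dying neurons (-1.92, adjusted p = 0.0163), and so was Shank2 (-2.38, adjusted p = 0.0218, and -3.06, adjusted p = 0.00453). Ncdn, whose neurochondrin binds group I receptors, had the largest surviving minus dying difference of this role among genes above background on all 4 arrays (1.40, adjusted p = 0.258) and Shank1 the smallest (-0.21, adjusted p = 0.841), which turned to 0.0814 without dying replicate 1.

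In the Gq arm, used by Grm5, 3 of 16 were called lower and 1 higher in surviving minus sham, and 8 of 14 lower and 1 higher in dying minus sham, against 9.93% and 26.9% of all probes called lower. Itpr1, the calcium release channel of the endoplasmic reticulum in neurons, was lower in both (-1.93, adjusted p = 0.0324, and -2.31, adjusted p = 0.0084). The 1 higher call in each comparison was its relative Itpr2, which was not above background on either sham array: with sham at the lowest level that counted as above background, the surviving mean was 1.02-fold and the dying mean 1.15-fold higher. Prkce, a protein kinase C, had the largest surviving minus dying difference of this arm above background on all 4 arrays (2.40, adjusted p = 0.319). It was 0.34 without dying replicate 1 and 4.46 without dying replicate 2. Plcb3, a phospholipase C, had the smallest (-2.10, adjusted p = 0.157), with both surviving arrays below both dying arrays.

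In the Gi arm, used by groups II and III, 2 of 20 were called in surviving minus sham and 9 of 20 in dying minus sham, all lower, against 9.93% and 26.9% of all probes called lower. Kcnj6, a subunit of the potassium channel opened by Gi-coupled receptors, fell by 4.50 (adjusted p = 0.0064) in dying minus sham. It had the largest surviving minus dying difference of the arm (2.42, adjusted p = 0.176), which was 1.11 without dying replicate 1 and 3.73 without dying replicate 2. Adcy5, an adenylyl cyclase inhibited by Gi, had the smallest (-1.04, adjusted p = 0.271). Gnai1, a Gi alpha subunit, was called lower in both, but no surviving or dying array was above background. With those arrays at the lowest level that counted as above background, sham was 4.99-fold over surviving and 4.2-fold over dying. Among the regulators, 2 of 12 were called lower in surviving minus sham, and 5 of 13 lower and 1 higher in dying minus sham, beside those same shares. Rgs7, which speeds the turn-off of Gi/o proteins, was lower in both (-2.32, adjusted p = 0.0181, and -3.29, adjusted p = 0.00298), and Rgs14, known from CA2 and CA1 neurons, rose by 1.76 (adjusted p = 0.0336) in dying minus sham and had the smallest surviving minus dying difference of its role above background on all 4 arrays (-0.79, adjusted p = 0.445, and from -1.21 to -0.36 without either dying array). Calm2, a calmodulin gene, had the largest (1.32, adjusted p = 0.202) and fell by 2.94 (adjusted p = 0.00499) in dying minus sham.

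**Figure D4:**
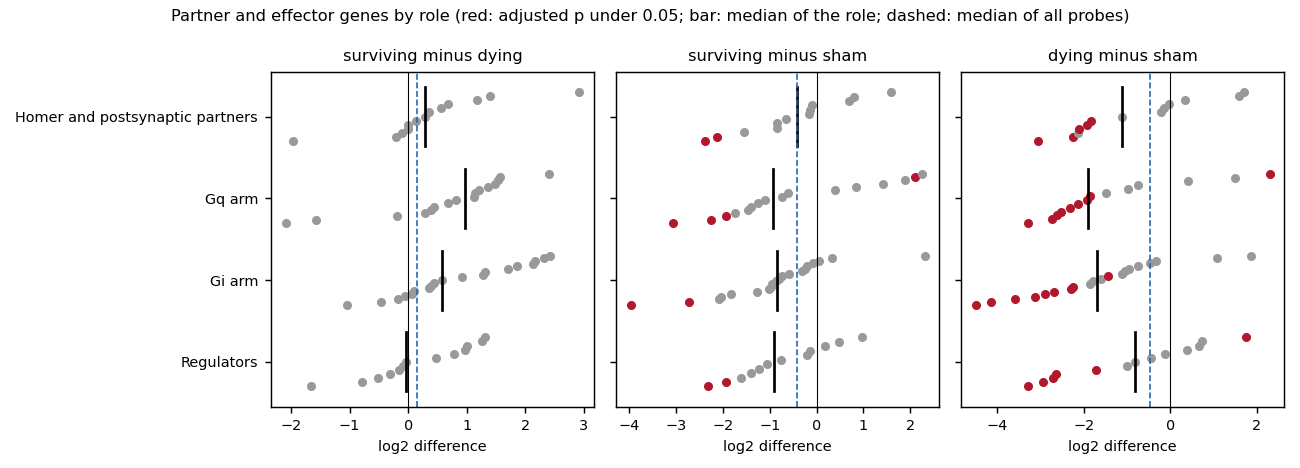
Log2 difference of each partner and effector gene by role in 3 comparisons; red marks an adjusted p under 0.05, the bar is the median of the role and the dashed line the median of all probes tested. In dying minus sham the role medians were -1.12 for Homer and postsynaptic partners, -1.90 for the Gq arm, -1.71 for the Gi arm and -0.83 for regulators, against -0.47 over all probes.

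The genes whose levels ran most like those of a receptor over the 8 arrays were sought among 9162 named probes above background on all arrays. For Grm2 they were Sema4g (Pearson r = 0.98), RGD1559963 (0.98) and RGD1565752 (0.96), for Grm3 Inpp5e (0.98), RGD1306230 (0.98) and RGD1309105 (0.98), and for Grm4 Cpne9 (0.97), RGD1309802 (0.96) and Pogz (0.96). These are descriptions over arrays that share slides and groups, with no p, and such values are found by search among many probes.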

How the data were processed

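CA3 neuron pools of 4 groups were each hybridized to Agilent rat genome arrays in 1 colour, 8 in all. Per the file headers, the scanner intensity of each of 45018 spots was background-subtracted and detrended by Agilent Feature Extraction 9.1.3.1 without scaling between arrays, and the same deposited files carry marks of 0 or 1 for spots that are saturated, non-uniform or well above background. The deposited series table holds a signal per probe divided by a constant per array, and how the authors chose that constant is not given in the sources used here; it served as an alternative only. As in the study's methods, signals were divided by the array median. Non-uniform spots (6 to 734 per array) were left out first, spots of a probe averaged, values under 0.01 set to 0.01, and log2 taken. No spot was saturated.

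limma 3.58.1 in R 4.3.3 fitted the 4 groups together (4 residual degrees of freedom before moderation) over all 41012 probes, and p-values were adjusted by Benjamini-Hochberg over the probes that either group of a comparison showed well above background on both of its arrays (threshold 0.05). The probes over which the spread is moderated were settled after 5 versions had been run. Over these versions, calls were 0 in surviving minus dying (5529 to 6241 at an unadjusted p under 0.05), 4163 to 5173 in surviving minus sham, 10288 to 11247 in dying minus sham and 0 in sham minus naive (829 to 1145 at an unadjusted p under 0.05). A fold is 2 to the power of the size of a log2 difference. For a group with an array not above background, a fold given at the lowest level takes, on that array, the higher of the probe's own level and the lowest level of any probe above background. That level is not a strict limit. On dying replicate 1 it was -1.37, and Grik4 lay there at -1.08 without being above background.

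Named genes were all probes of the 7 receptors, in each partner role the genes with the largest and smallest surviving minus dying difference among those above background on all 4 arrays, and partner genes past the threshold, of which examples are given. Similar genes are the 3 with the highest correlation. The members and lists were chosen with earlier results of these data known. Alternatives changed the scaling, background correction, values, spot marks, floor, filter, probe averaging, replicate block, arrays in the fit and each array in turn. Promoters are RefSeq sequences of GRCr8, matched by gene symbol. Some entries of the gene and marker lists are not reported here.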

Additional observations from a re-analysis of the deposited data

Results flagged for a closer look

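A probe outside the gene names used here, described as the splice insertion of receptor 5b, was above background on surviving replicate 1, at a log2 level of -1.98, and on dying replicate 1, at -0.96. It was not above background on any naive or sham array, where its log2 levels ran from -3.09 to -1.37, nor on surviving replicate 2 (-2.18) or dying replicate 2 (-2.15). It was drawn to attention as a signal in a probe that the comparisons did not use, in both cases on 1 of 2 arrays of a group, and the difference was not tested. The lowest log2 level that counted as above background was -2.31 on surviving replicate 1 and -1.37 on dying replicate 1. On the other slide it was -0.85 and -0.81 (naive), and -0.31 and -0.15 (sham). The level on naive replicate 1 (-1.37), not above background, was higher than that on surviving replicate 1 (-1.98). The marks on different slides therefore do not show that this probe was higher after injury.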

How the results depend on the processing

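The call counts by limma moved with the choices as follows. In surviving minus dying, 2 probes were called with the deposited series table, and with 1 array left out from 0 to 5027 probes, 0 to 4 receptor probes and 0 to 11 partner genes, and the fold filter passed 1 receptor probe with no filter on replicates. In surviving minus sham, 0 probes were called with normexp correction, 1609 where probes had to be above background on all 4 arrays, 10461 with the arrays of the 2 groups only, and 228 to 415 with 1 array left out, and the receptor count was 0 with 75th percentile scaling, normexp correction, the stricter filter, either trend in the spread or any array left out (lowest 0, highest 0), and 3 with the 2 groups only. In dying minus sham, 0 probes were called with normexp correction, 5374 with the stricter filter and 1797 to 12513 with 1 array left out, and the receptor count was 1 with 75th percentile scaling and with the series table, 0 with normexp correction and with the stricter filter, and 1 to 2 with 1 array left out. That receptor count was 3 with a floor of 0.1 and with either trend in the spread. In sham minus naive, 1 probe was called with quantile normalization and 0 to 1 with 1 array left out.

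Log2 differences changed sign as follows. In surviving minus dying, Grm2 was 0.62 with normexp correction and 0.91 without dying replicate 1, Grm3 1.04 and 0.70, Grm4 0.98 and 0.0378, and Grm6 0.31 and 1.01, while without surviving replicate 2 Grm4 was 0.10 and Grm6 0.0528. With 1 array left out, the lowest were -2.35 (Grm2), -1.01 (Grm3), -0.32 (Grm4) and -1.36 (Grm6). In surviving minus sham, Grm3 was 0.12 with quantile normalization and 0.0684 with normexp correction. In dying minus sham, Grm2 was 0.19 without dying replicate 2, and Grm3 was 0.37 with quantile normalization, 0.0448 with the series table and 0.0933 without dying replicate 2, and the lowest with 1 array left out were -3.08 and -1.62. In sham minus naive, Grm2 was 0.87 with normexp correction, 0.17 without sham replicate 1 and 0.0924 without naive replicate 1, and at the lowest -0.19 with 1 array left out. Grm4 was -0.0224 with 75th percentile scaling, -0.18 with quantile normalization, -0.0875 with the series table and -0.11 without sham replicate 1, and Grm7 was -0.15 with 75th percentile scaling, -0.21 with the series table, -0.21 as the mean over its probes and -0.17 without naive replicate 1, with 0.66 for Grm4 and 0.48 for Grm7 as the highest with 1 array left out.

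With a replicate block, 0 probes were called in surviving minus dying, 2644 in surviving minus sham, where the receptor count was 0 and Grm7 had an adjusted p of 0.0631, 9125 in dying minus sham and 0 in sham minus naive. A replicate block crossed between surviving and dying, chosen after the data were seen, called 0. The other moderation versions were chosen after the data were seen too. The cause of these moves was not tested.

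The small number of arrays limits the precision of every value, injury and slide cannot be told apart against sham, dying replicate 1 was dim, and Grm5, Grm8 and a probe of Grm6 lay at or near background, so that they were not among the probes tested in the fit reported. Captured pools held transcripts of other cells, whose part was not tested.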

Other observations

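LOC689135, a probe described as similar to receptor 3 and outside the gene names used here, was above background on all 8 arrays and was chosen after its values were seen. Its log2 levels were 1.96 and 3.28 (naive), 2.30 and 1.37 (sham), -1.73 and 0.06 (surviving), and 1.24 and -0.95 (dying), so both surviving and both dying arrays lay below all naive and sham arrays. The limma differences were -2.67 ± 0.92 (SE, n = 2 and 2, adjusted p = 0.0799) in surviving minus sham and -1.69 ± 0.92 (adjusted p = 0.164) in dying minus sham, neither past the threshold. In surviving minus dying it differed by -0.98 (adjusted p = 0.581).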
